A study of Homo sapiens with 47 samples.

Results

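The 10 WNT ligand genes *WNT1*, *WNT2B*, *WNT3*, *WNT3A*, *WNT4*, *WNT5A*, *WNT5B*, *WNT6*, *WNT8A* and *WNT11* were followed through a stepwise culture of human embryonic stem cells (hESCs). They were chosen by symbol from the 58051 Ensembl genes listed for each library, and all 10 were found. The other 9 WNT genes of the human genome were used only for comparison, so that sums run over 19 genes. WNT proteins are secreted, lipid-modified signals that bind Frizzled receptors on nearby cells. In the canonical branch, binding together with LRP5 or LRP6 stabilises beta-catenin, which acts with TCF and LEF factors in the nucleus. In the noncanonical branches, co-receptors such as ROR2 carry signals to cell polarity and movement. In the vertebrate embryo, canonical ligands such as WNT3A and WNT8A mark the primitive streak and tail bud, WNT5A and WNT11 are known for axis elongation, and WNT1 and WNT3A are made by the dorsal neural tube.

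The series holds 47 polyA-selected, single-end RNA-seq libraries from WA09 (H9), an established hESC line. Whole cultures were sampled in 3 differentiations, named r1, r2 and r3, before treatment (t0), after 36 h and at passages P1 to P10, except that P9 has r1 and r2 only. At P5 and P8, selective detachment with TrypLE gave fractions enriched for epithelial (EPI) or mesenchymal (MES) cells, with 3 libraries each. The t0 cells grew in mTeSR1, and all later cells in N2B27 without vitamin A, with the GSK3 inhibitor CHIR-99021, FGF2, the retinoic acid receptor antagonist AGN193109 and the ROCK inhibitor Y-27632. CHIR-99021 itself activates the canonical pathway, so every culture after t0 received such a stimulus besides any ligand it made. The submitters call the 36 h cells neuromesodermal progenitor-like, the EPI cells pre-neural progenitors and the MES cells neural crest. Totals of expected counts ran from 13029491 in P6 r3 to 64082859, with a median of 47292229. Levels are given as TPM, RSEM transcript abundances that are scaled by transcript length and so allow comparison between genes.

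The labels were checked against marker lists. At t0, 5 of 5 pluripotency markers were at 1 TPM or more in each library, with *POU5F1* the most abundant at 1749, 1569 and 1590 TPM. At 36 h, 5 of 5 neuromesodermal markers passed 1 TPM in each library, among them *TBXT* at 62.3, 477 and 493 TPM, while *POU5F1* was still at 1504, 1050 and 593 TPM. *SOX2*, of the same neuromesodermal list, was at 182, 173 and 193 TPM at t0 and at 217, 21.3 and 4.14 TPM at 36 h. P1 r1 stood apart from the other P1 libraries, with *POU5F1* at 863 TPM against 18.7 and 5.07, and *NKX1-2* at 652 TPM against 9.55 and 0.78. P10 r1 stood apart as well, with *SOX2* at 214 TPM against 0.50 and 0.71 in P10 r2 and r3. The fits of the ligands and the counts over all genes were repeated without each of these libraries, but the calls in other gene lists were not. In bulk RNA, fewer cells of a type and less RNA per cell cannot be told apart.

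*WNT8A*, a canonical ligand of the primitive streak, was close to absent in hESCs and abundant at 36 h. Its level was 0.08, 0.05 and 0.30 TPM at t0 and 56.4, 95.3 and 313 TPM at 36 h in r1, r2 and r3. At P1 it stood at 13.4, 77.6 and 29.9 TPM, and at P2 at 121, 4.06 and 2.98 TPM. All 36 h libraries lay above all t0 libraries, whereas at P2 r1 alone was high, at its own peak. From P4 to P10 no whole culture exceeded 1.90 TPM. The gene lies at chr5:138083892-138092365 on the plus strand (GENCODE 29, GRCh38, as for all gene positions here).

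*WNT3A*, another canonical ligand of the tail bud, had a like course at a lower level. It was at 0.21, 0.10 and 0.11 TPM at t0, at 2.98, 9.73 and 33.7 TPM at 36 h and at 4.63, 11.03 and 0.51 TPM at P1. At P2 its level was 31.5 TPM in r1 but 0.36 and 0.04 TPM in r2 and r3. The highest value in the time course thus came at P2 in r1, at P1 in r2 and at 36 h in r3. It was at 0.27 TPM or less from P4 to P7 and at 0.37, 0.48 and 0.43 TPM at P8. Both P9 libraries had a count of 0, which allows up to 3 counts. *WNT3A* lies at chr1:228007051-228061260 on the plus strand, 59152 bases from *WNT9A*.

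*WNT3*, the canonical ligand needed for the primitive streak in the mouse, had the highest group mean of the canonical ligands of the list in each whole-culture group from P4 on. It was at 0.52, 0.82 and 0.44 TPM at t0, at 10.8, 31.2 and 9.11 TPM at 36 h and at 3.96, 3.74 and 3.74 TPM at P1. The 3 groups do not overlap. Among whole cultures the 36 h value was the highest in each differentiation, while P5 MES r3 stood at 11.2 TPM. From P2 to P10 the whole cultures ran between 3.22 and 9.03 TPM. It lies at chr17:46762506-46833154 on the minus strand, 46 bases from *WNT9B*, which runs the other way and reached at most 0.57 TPM.

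*WNT5B* and *WNT5A* are close relatives best known for noncanonical signalling, and they peaked at different times, with both over 100 TPM in 36 h r3, P1 r2 and P2 r1. *WNT5B* was at 1.70, 1.56 and 2.05 TPM at t0 and 89.8, 198 and 377 TPM at 36 h, which made it the most abundant WNT gene in each 36 h library. It was at 174, 108 and 22.6 TPM at P1 and at 241, 17.3 and 7.43 TPM at P2, so that r1 again held its highest value at P2 and r2 and r3 theirs at 36 h. At P3 it was at 33.8, 32.6 and 25.8 TPM, which was above P2 in r2 and r3, and at P10 at 3.91, 4.08 and 2.71 TPM. The P3 and P10 libraries do not overlap. *WNT5B* lies at chr12:1529891-1647243 on the plus strand and overlaps *FBXL14* on the opposite strand. Whether reads were counted by strand is not given in the sources used here, so reads of these 2 genes may not be separable. *FBXL14* was also the gene most like *WNT5B* over the 16 groups (Pearson r = 0.98 between group means of log2(TPM + 1)), with at most 2096 normalized counts in a library.

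*WNT5A* was at 2.69, 2.41 and 2.72 TPM at t0 and at 3.07, 19.3 and 121 TPM at 36 h. At P1 it was at 3.63 TPM in r1 and at 167 and 135 TPM in r2 and r3, and at P2 r1 had reached 177 TPM beside 72.3 and 51.4. The values at P8 were 623, 935 and 670 TPM and at P10 1041, 683 and 731 TPM. So *WNT5A* came on at 36 h or P1 in r2 and r3 and between P1 and P2 in r1, and later reached the highest level of any WNT gene in the series. In the order of the 16 group means, from P10 with 818 ± 195 TPM (SD, n = 3) down to t0 with 2.61 ± 0.171 TPM (SD, n = 3), 14 of 15 neighbouring groups overlap and the 36 h and t0 groups do not. The gene lies at chr3:55465715-55490539 on the minus strand. The antisense gene *WNT5A-AS1* overlaps it, with at most 65.7 normalized counts in a library beside a median of 37598 for *WNT5A*.

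**Figure D1:**
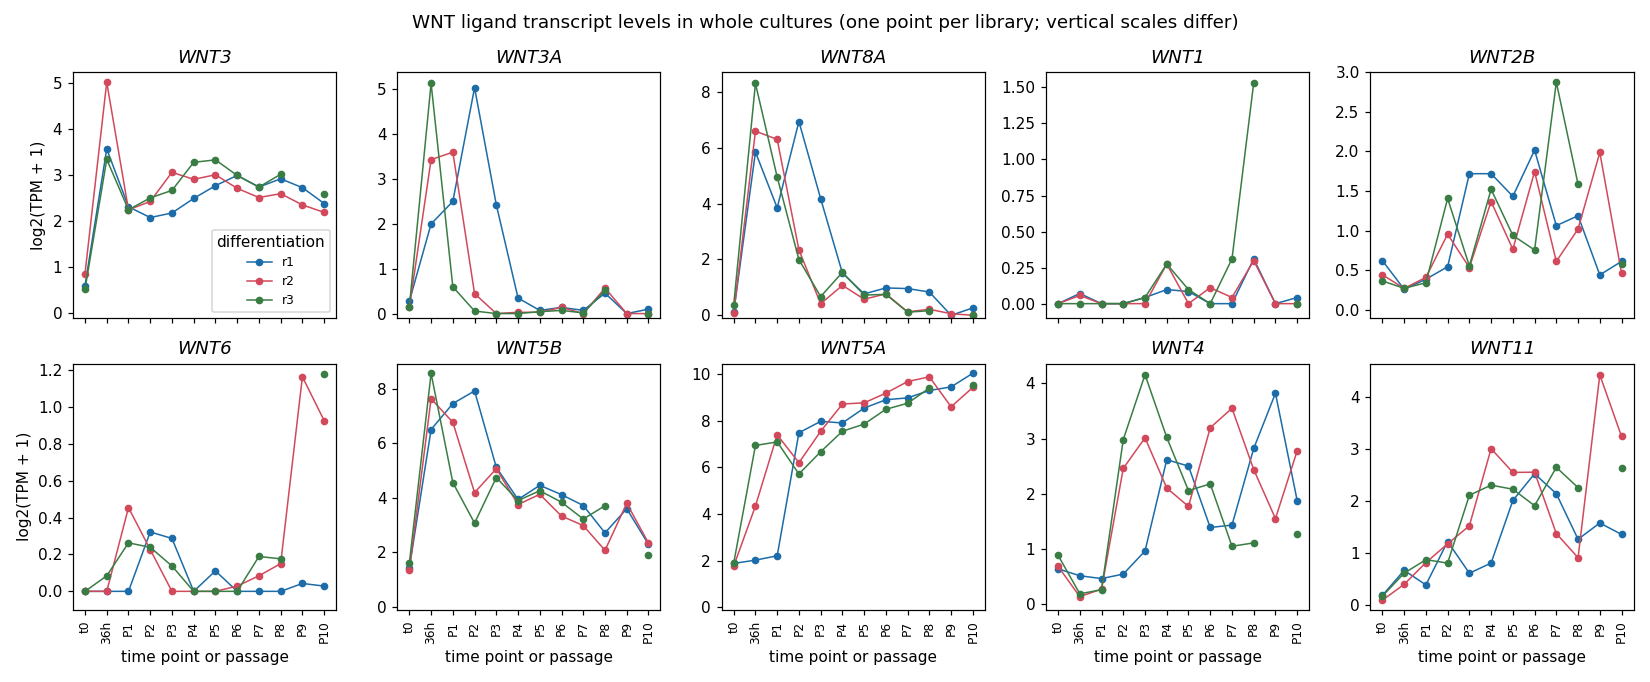
Level of each of the 10 ligands in the 35 whole cultures, as log2(TPM + 1), by time point, with 1 point per library and 1 line per differentiation; vertical scales differ between panels. *WNT8A*, *WNT3A* and *WNT5B* have their highest values between 36 h and P2, in r1 at P2, while *WNT5A* climbs to 1041 TPM at P10 r1.

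The step from hESCs to 36 h was tested with edgeR over 21750 genes, with the differentiation as a block. To be called, a gene needed an adjusted p under 0.01, a change of 2-fold or more, and 100 normalized counts or more on average. Of the 10 ligands, 9 passed the filter on low counts and 4 were called, all higher at 36 h, against 2.71% of all genes called in either direction. Both canonical and noncanonical ligands were among them. *WNT8A* was up by 10.31 ± 1.64 (log2 fold change ± SE; edgeR adjusted p = 0.000186) and *WNT5B* by 6.88 ± 1.00 (edgeR adjusted p = 6.48e-05). *WNT3* was up by 4.83 ± 0.39 (edgeR adjusted p = 1.22e-08) and *WNT5A* by 4.27 ± 1.01 (edgeR adjusted p = 0.00647). Each of these was higher in TPM at 36 h in 3 of 3 differentiations, though for *WNT5A* in r1 the values were 2.69 and 3.07 TPM. *WNT3A*, at 7.70 ± 1.93 and higher in 3 of 3, missed the threshold (edgeR adjusted p = 0.0102). It was called by DESeq2 and without P1 r1, which gave 5 ligands each. The median over the 9 ligands was 4.27 against 0.00 over all genes. It includes *WNT6*, which had no more than 3 counts in any of the 6 libraries. Leaving out r2 left 1 call and leaving out r3 left 2. The count over all genes, 589 with every library, also fell in both cases. The ligand count thus depends on the libraries fitted, and the cause was not tested. *WNT5A* lost its call without r3 (log2 fold change 1.99, edgeR adjusted p = 0.434), when only the compared groups were fitted, and without r2. *WNT8A* lost its call without r2 (10.11, edgeR adjusted p = 0.0391) and without r3 (10.58, edgeR adjusted p = 0.0253), and *WNT5B* without r2 (6.95, edgeR adjusted p = 0.0357). *WNT3* kept its call in each case.

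The sequence around the RefSeq start sites of the listed ligands, called or not (GRCh38.p14, 250 bases before to 50 after), was searched on both strands for the TCF and LEF cores CTTTGA and CTTTGT and for the CDX core TTTATG. An entry was found for 9 of the 10 ligands, all but *WNT11*. Over all 27305 promoters of this length, 13.1% (3578) hold CTTTGA, 4368 hold CTTTGT and 2995 hold TTTATG. Among the 9, CTTTGA was in none, CTTTGT in *WNT3* and TTTATG in *WNT8A*. The pair with a match is shown 5′ to 3′ on the gene's own strand with the match in capitals, *WNT3* at chr17:46818643-46818942 (minus strand) and *WNT8A* at chr5:138083783-138084082 (plus strand, where TTTATG reads as CATAAA). The RefSeq start of *WNT3* lies 14462 bases inside the GENCODE gene, so the window is that of a shorter transcript. The starts of *WNT5B*, *WNT5A* and *WNT4* lie 87165, 3233 and 872 bases inside theirs, so the lack of a match there does not cover the outermost start. A match is a description of these letters and not a binding site.
WNT3: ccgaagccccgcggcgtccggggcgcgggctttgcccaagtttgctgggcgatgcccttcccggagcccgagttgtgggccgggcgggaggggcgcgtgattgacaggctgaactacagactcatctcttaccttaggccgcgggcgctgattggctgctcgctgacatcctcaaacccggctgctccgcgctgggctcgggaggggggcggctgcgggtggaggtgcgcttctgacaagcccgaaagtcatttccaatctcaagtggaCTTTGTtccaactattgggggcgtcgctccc
WNT8A: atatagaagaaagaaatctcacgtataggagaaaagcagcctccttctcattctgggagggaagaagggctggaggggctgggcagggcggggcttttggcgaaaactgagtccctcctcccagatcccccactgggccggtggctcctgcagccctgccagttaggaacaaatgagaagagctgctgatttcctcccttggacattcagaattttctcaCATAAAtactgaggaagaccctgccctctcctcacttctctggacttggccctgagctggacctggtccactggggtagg

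From 36 h to P1 only *WNT3* passed the test. Its log2 fold change was -2.10 ± 0.35 (edgeR adjusted p = 0.000867), and it was lower in 3 of 3 differentiations. That is 1 of 9 ligands tested, against 1.19% of all genes. *WNT8A* was lower at P1 in 3 of 3, from 313 to 29.9 TPM in r3 but only from 95.3 to 77.6 TPM in r2, and was not called (edgeR adjusted p = 0.355, log2 fold change -1.79 ± 1.12). *WNT5A* was higher at P1 in 3 of 3, whereas *WNT5B* and *WNT3A* were higher in some differentiations and lower in others. The call of *WNT3* was lost without r2 and without r3, and no gene at all was called when only the P1 and 36 h libraries were fitted.

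Between P1 and P3 no ligand passed the test, and *WNT4* had the largest fitted change. *WNT4*, known for kidney and female gonad development, was at 0.56, 0.61 and 0.85 TPM at t0, at 0.38, 0.21 and 0.20 TPM at P1, at 0.46, 4.50 and 6.90 TPM at P2 and at 0.95, 7.07 and 16.8 TPM at P3. In r1 it reached 5.13 TPM at P4. Every P3 library lay above every P1 library, and r1 was the lowest at P3. None of the 9 tested ligands was called by edgeR, against 1.09% of all genes. At an unadjusted p under 0.05 there were 4, of which 1 was higher and 3 lower, beside 4583 of 21750 genes. DESeq2 called 2 ligands, *WNT4* and *WNT8A*, and 530 genes. *WNT4* was higher in 3 of 3 by 5.72 ± 1.3 and narrowly missed (edgeR adjusted p = 0.0102). It was called without the replicate block, with all 47 libraries in the fit and without P10 r1, 1 ligand in each case. *WNT8A* was lower in 2 of 3 and did not pass (log2 fold change -4.33 ± 1.29, edgeR adjusted p = 0.0464). In r1 it was at 13.4 TPM at P1 and 17.0 TPM at P3. Without r1, 3 ligands were called, and the count over all genes rose as well. Why *WNT8A* did not pass was not tested.

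From P3 on, no step moved a ligand past the threshold of edgeR. Between P3 and P5, 0 of 9 were called against 0.0138% of all genes, and 0 were under an unadjusted p of 0.05 (beside 1545 genes) or called by DESeq2 (beside 58). Between P5 and P8, 0 of 9 were called against 0.0092%. An unadjusted p under 0.05 was found for 1, *WNT3A*, beside 2892 genes, and DESeq2 called 0 ligands and 155 genes. *WNT3A* had 4, 1 and 2 counts at P5 and 34, 40 and 28 at P8, higher in 3 of 3 without overlap. *WNT5A* was higher at P8 than at P5 in 3 of 3 differentiations, at 623 against 369 TPM in r1, 935 against 432 in r2 and 670 against 229 in r3. The fitted change of 1.09 ± 0.87 did not pass (edgeR adjusted p = 0.649). Its libraries do not overlap between P5 and P8. The spread of the fit comes from all 35 whole cultures. With only the compared groups fitted no gene at all was called at this step, so that fit decides nothing about *WNT5A*. Why *WNT5A* did not pass was not tested.

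At P9 and P10 the cultures differed from P8 in many genes, but not in a called ligand. The mean of P9 and P10 against P8 gave 0 of 9 ligands called beside 1.25% of all genes. At an unadjusted p under 0.05 there were 3, of which 2 were higher at P9 and P10 and 1 lower, beside 5708 of 21750 genes, and DESeq2 called 0 ligands and 740 genes. Without P10 r1 the count over all genes was 1007 in place of 271, and without the replicate block it was 37, with 0 ligands in both cases. The lower ligand was *WNT3A*, with 34, 40 and 28 counts at P8 against 0 and 0 at P9 and 6, 0 and 0 at P10. Its test did not pass (edgeR adjusted p = 0.0512), and its mean of 11.6 normalized counts was under the minimum for a call by either tool. The higher 2 were *WNT6* and *WNT11*. *WNT6*, an ectodermal ligand used in studies of neural crest induction, was at 0.13 TPM or less at P8, and at 1.24 TPM in P9 r2 and 0.90 and 1.26 TPM in P10 r2 and r3. In P9 r1 and P10 r1 it was at 0.03 and 0.02 TPM, so the groups overlap. *WNT11*, a noncanonical ligand of gastrulation movements, was at 1.39, 0.87 and 3.76 TPM at P8, at 1.97 and 20.4 TPM at P9 and at 1.55, 8.42 and 5.2 TPM at P10. Its change of 1.66 ± 0.72 did not pass (edgeR adjusted p = 0.142). For both genes r1 held the lowest value at P9 and at P10. The 5 neuromesodermal markers summed to 721, 266 and 160 TPM at P8 and to 15.5 and 23.1 TPM at P9. At P10 their sums were 434, 4.28 and 3.26 TPM. Sums of 6 lateral plate and limb mesenchyme markers were 228, 230 and 293 TPM at P8 and 419 and 495 TPM at P9. At P10 they were 260, 491 and 544 TPM. *PRRX1*, a mesenchyme gene, was the most abundant of this list in each of these libraries and made up nearly all of the P10 r3 sum. edgeR called 0 of either list at this step, and their part in the ligand values was not tested.

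*WNT1*, *WNT2B* and *WNT6* were at 6.31 TPM or less in every library, and *WNT11* reached 20.4 TPM. *WNT1*, the dorsal midbrain and roof plate ligand, failed the filter on low counts in both fits and had over 3 counts in only 10 of 47 libraries. Its highest value, 1.89 TPM in P8 r3, was the only one above 1 TPM, and at P8 the other 2 libraries had 0.24 and 0.23 TPM. *WNT2B*, a canonical ligand known from liver and eye, had over 3 counts in all 47 libraries and its highest value, 6.31 TPM, in P7 r3. It was at 0.54, 0.36 and 0.29 TPM at t0 and at 2.29, 1.58 and 1.87 TPM at P4. *WNT11* was lowest at t0 with 0.13, 0.06 and 0.12 TPM and had 4.73, 4.85 and 2.74 TPM at P6. *WNT6* had a count of 0 in 18 of 47 libraries and did not pass the filter among the fractions. These 4 genes lie at chr12:48978453-48981676 (*WNT1*, plus), chr1:112466541-112530165 (*WNT2B*, plus), chr11:76186325-76210736 (*WNT11*, minus) and chr2:218859821-218874233 (*WNT6*, plus), and *WNT4* at chr1:22117305-22143969 (minus). *WNT1* has *WNT10B* 6689 bases away, and *WNT6* has *WNT10A* 6129 bases away. *WNT2B* overlaps *ST7L* on the opposite strand, which had a median of 614 normalized counts beside 100.5 for *WNT2B*, so its level is uncertain to that extent.

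**Figure D2:**
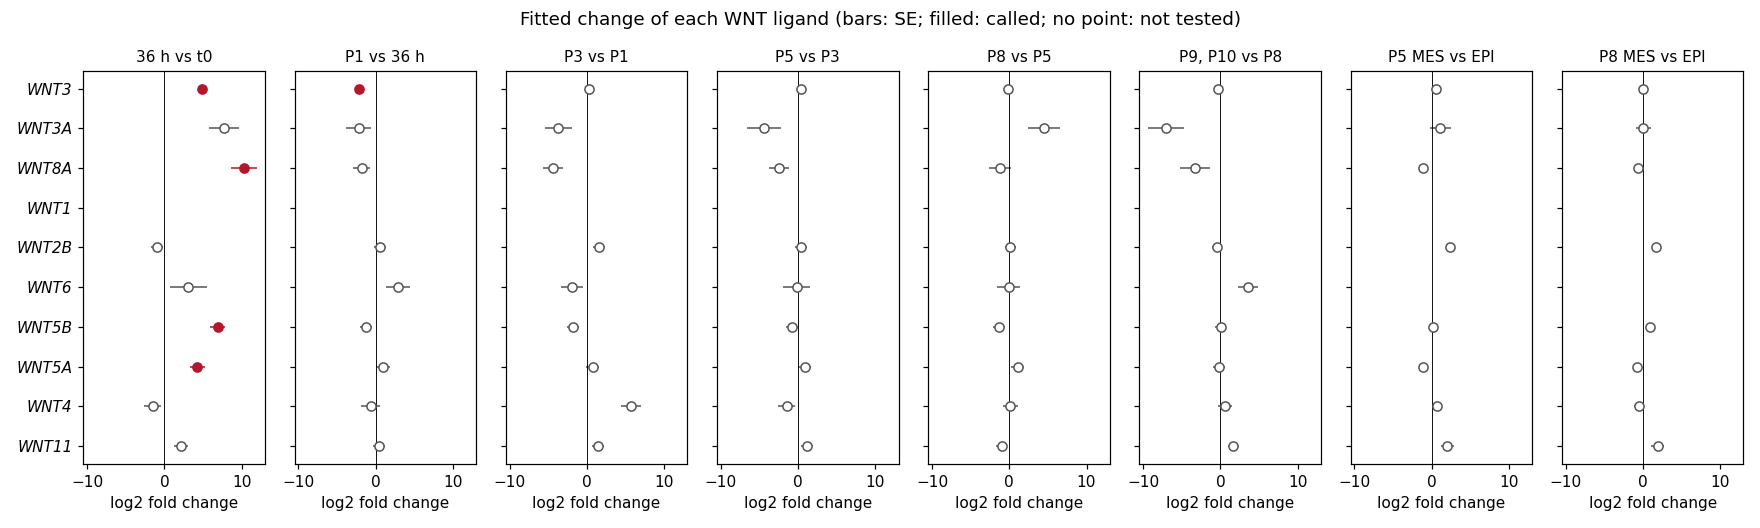
Fitted log2 fold change of each ligand in 8 comparisons, with its standard error as a bar; filled red points were called, open points were not, and a missing point was not tested. Filled points stand in the 36 h panel (*WNT3*, *WNT8A*, *WNT5B*, *WNT5A*) and the P1 panel (*WNT3*).

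The makeup of the WNT transcripts was described as shares of their summed level. The summed level of the 19 WNT genes was 8.32, 8.14 and 8.71 TPM at t0 and 172, 355 and 856 TPM at 36 h. At 36 h the 4 noncanonical ligands (*WNT4*, *WNT5A*, *WNT5B*, *WNT11*) held 54.7%, 61.1% and 58.2% of the sum, and at t0 61.1%, 57.0% and 65.9%. Over the 10 listed ligands alone the mean share was 80.1% at t0 and 58.9% at 36 h, so whether the share changed depends on the genes summed. The leading gene differed, as *WNT5B* held 50.6% ± 6.0 (SD, n = 3) and *WNT5A* 7.1% ± 6.3 at 36 h, and *WNT8A* held another 32.1% ± 4.9. The noncanonical share of the 19 was 85.0%, 74.7% and 81.6% at P1, 72.3%, 89.3% and 86.0% at P2, 88.8%, 96.1% and 94.9% at P3 and 97.5%, 98.2% and 95.6% at P5. By P10 *WNT5A* alone held 97.0% ± 1.7 of the sum. The 3 P5 libraries lay above the 3 P3 libraries except that P5 r3 was under P3 r2. In P1 r1 and P2 r1 *WNT5B* was still the most abundant WNT gene, where *WNT5A* was in r2 and r3. Summed TPM of *WNT3*, *WNT3A* and *WNT8A* was 70.2, 136 and 356 at 36 h and 6.56, 7.53 and 9.71 at P5, where *WNT3* made up most of it. These shares are descriptions and were not tested.

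**Figure D3:**
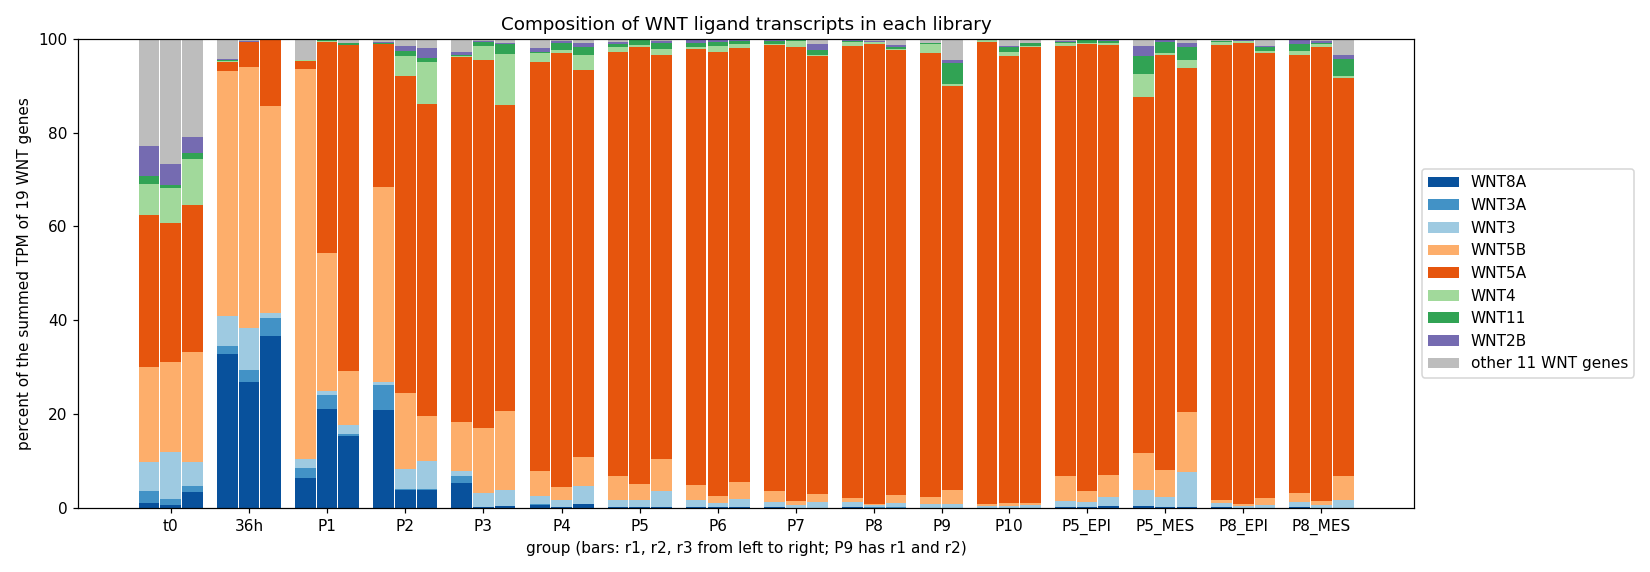
Share of each ligand in the summed TPM of 19 WNT genes, in percent, with 1 bar for each of the 47 libraries grouped by time point or fraction. The blue and light orange parts (*WNT8A*, *WNT3A*, *WNT3* and *WNT5B*) fill most of the 36 h bars, and dark orange (*WNT5A*) reaches 97.0% on average at P10.

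The fractions asked whether epithelial and mesenchymal cells of the same culture make different ligands. *WNT5A* was at 377, 521 and 349 TPM in the P5 EPI libraries and at 172, 302 and 108 TPM in the P5 MES libraries. At P8 it was at 685, 1024 and 664 TPM in EPI and at 544, 745 and 277 TPM in MES. It was higher in EPI in 3 of 3 differentiations at each passage, without overlap at P5 and with overlap at P8. *WNT2B* went the other way, at 0.84, 0.35 and 0.40 TPM in P5 EPI against 4.55, 1.54 and 1.35 TPM in P5 MES, and at 0.60, 0.54 and 1.60 TPM in P8 EPI against 5.53, 2.00 and 2.28 TPM in P8 MES. The groups do not overlap at either passage. *WNT11* was at 1.00, 3.30 and 2.07 TPM in P5 EPI and 8.91, 8.69 and 4.17 TPM in P5 MES, and at 0.75, 0.79 and 5.16 TPM in P8 EPI and 7.34, 2.14 and 12.1 TPM in P8 MES. It was higher in MES in 3 of 3 at each passage, with overlap at P8 through r3 EPI and r2 MES.

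No ligand was called between the fractions by edgeR, where 8 of 10 ligands were tested among 18885 genes. At P5, 0 of 8 were called beside 0% of all genes (0 genes). At an unadjusted p under 0.05 there were 5 ligands and 4894 genes, and DESeq2 called 2 ligands, *WNT2B* and *WNT5A*, and 674 genes. By edgeR, MES exceeded EPI in *WNT2B* by 2.34 ± 0.52 (edgeR adjusted p = 0.0353) and in *WNT11* by 1.99 ± 0.84 (edgeR adjusted p = 0.178), and *WNT5A* differed by -1.08 ± 0.19 (edgeR adjusted p = 0.0202). *WNT3* (0.53 ± 0.21, edgeR adjusted p = 0.147) and *WNT8A* (-1.10 ± 0.47, edgeR adjusted p = 0.18) were also among the 5. At P8, 0 of 8 were again called beside 0% of all genes, with 3 ligands and 2261 genes at an unadjusted p under 0.05 and 0 ligands and 55 genes called by DESeq2. The 3 were *WNT2B* (1.65 ± 0.52, edgeR adjusted p = 0.322), *WNT5A* (-0.71 ± 0.19, edgeR adjusted p = 0.282) and *WNT5B*. *WNT11* differed there by 1.89 ± 0.85 (edgeR adjusted p = 0.426) and was not among them. *WNT5B*, at 13.0 to 22.4 TPM in the P5 fractions, was at 4.53, 3.98 and 9.92 TPM in P8 EPI and 10.4, 6.99 and 17.1 TPM in P8 MES, higher in MES in 3 of 3 (0.89 ± 0.34, edgeR adjusted p = 0.374). The difference between P8 and P5 in the MES to EPI change was tested as an interaction and gave 0 of 8 ligands beside 0% of all genes, 0 ligands and 1152 genes at an unadjusted p under 0.05, and 0 ligands and 1 gene by DESeq2. For *WNT5A* this interaction was 0.37 ± 0.27 and for *WNT2B* -0.69 ± 0.71.

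**Figure D4:**
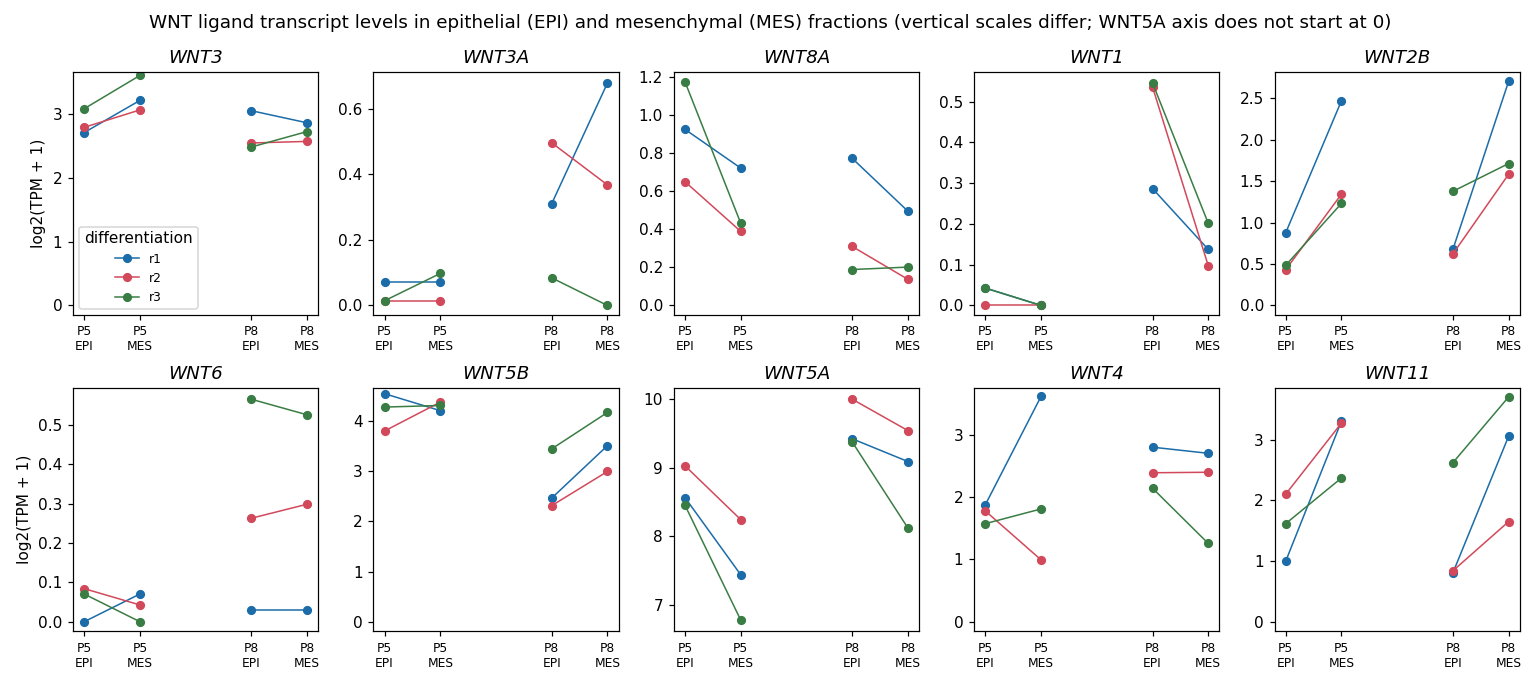
Level of each ligand as log2(TPM + 1) in the EPI and MES fractions, at P5 and at P8, with lines joining the 2 fractions of a differentiation; vertical scales differ, and the *WNT5A* axis does not start at 0. *WNT5A* slopes down and *WNT2B* and *WNT11* slope up from EPI to MES in all 6 pairs.

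Marker lists were compared between the fractions as well, and edgeR called 0 markers at P5, at P8 or in the interaction, where DESeq2 also called 0 of the neural crest, neuromesodermal and epithelial markers. The summed level of 8 neural crest markers was 56.8, 117 and 189 TPM in P5 EPI and 261, 338 and 465 TPM in P5 MES, led in MES by *ETS1* or *SNAI2*. At P8 it was 109, 419 and 617 TPM in EPI and 270, 385 and 872 TPM in MES, so that r2 was not higher in MES. At an unadjusted p under 0.05 there were 8 of 8 at P5 and 3 of 8 at P8, and DESeq2 called 5 and 1. Over all 18885 genes tested there were 4894 at P5 and 2261 at P8, and DESeq2 called 674 and 55. These all-gene counts stand beside the other lists of this paragraph too. The 5 neuromesodermal markers summed to 776, 586 and 468 TPM in P5 EPI and to 285, 239 and 89.2 TPM in P5 MES, with *CDX2* the most abundant in each. At P8 the sums were 676, 289 and 189 TPM in EPI and 456, 197 and 57.0 TPM in MES. At an unadjusted p under 0.05 there were 4 of 5 at P5 and 1 of 5 at P8, and DESeq2 called 3 and 0. *CDH1*, which encodes the adhesion protein typical of epithelia, was at 0.08, 0.16 and 0.12 TPM in P5 EPI and at 0.04, 0.25 and 0.09 TPM in P5 MES. At t0 it had been at 166, 165 and 126 TPM. *EPCAM*, another epithelial marker, was at 3.63, 5.00 and 3.14 TPM in P5 EPI and 1.80, 2.11 and 0.45 TPM in P5 MES. The 5 epithelial markers summed to 303, 357 and 263 TPM in P5 EPI and to 158, 171 and 68.1 TPM in P5 MES, but *CDH2*, which is not limited to epithelia, made up nearly all of it with 297, 349 and 258 TPM in P5 EPI. The median log2 fold change was -1.35 against 0.00 over all genes, with 0 called by edgeR, 4 at an unadjusted p under 0.05 and 1 called by DESeq2. At P8 it was 0.10 against -0.01, with 0 called by edgeR, 2 at an unadjusted p under 0.05 and 0 by DESeq2. The part of these cell types in the ligand differences was not tested.

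The same holds over time. The 5 paraxial mesoderm markers summed to 8.83, 132 and 632 TPM at 36 h and 7.60, 396 and 487 TPM at P1, and r1 reached 308 TPM at P2. They were low in the same 36 h and P1 libraries of r1 in which *WNT5A* was low. The 4 endoderm markers reached 46.9 TPM in sum at 36 h r3, with *SOX17* at 0 in all 3 libraries of 36 h, and 2.16 TPM or less outside 36 h. Of 3 tested, 2 were called higher at 36 h than at t0, against 2.71% of all genes. These were *GATA6*, by 10.29 ± 1.56 (edgeR adjusted p = 0.000154), and *GATA4*, by 8.45 ± 1.38 (edgeR adjusted p = 0.000601). The 5 dorsal neural markers, led by *MSX1*, *ZIC1* or *PAX3* from P1 on, were at 347 TPM or more in sum in each whole culture from P4 on. Only 3 of the 5 passed 1 TPM in each of these cultures, except P8 r2 with 4. The roof plate gene *LMX1A* was at 0 TPM in P5 r3, P9 r2 and P10 r2. The mesenchyme gene *PRRX1* led its list from P2 on, with 536 TPM at P10 r3. Neural progenitor markers summed to at most 30.9 TPM, surface ectoderm markers to at most 11.9 TPM and endothelial markers to at most 76.1 TPM (*KDR* at 36 h r1). Among 5 neuron markers *TUBB3*, which hESCs also express, led in all but 1 library. Their part in the ligand levels was not tested.

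The rest of the pathway was followed through lists of genes. Over all genes, 2.71% were called at 36 h against t0, 1.19% at P1 against 36 h, 1.09% at P3 against P1 and 1.25% at P9 and P10 against P8. Of the other 9 WNT genes, 7 were tested in the time course and 0 were called by edgeR in any of the 6 steps or, with 6 tested, between the fractions. An unadjusted p under 0.05 was found for 0 to 3 of them in a comparison, and DESeq2 called 0. They reached 11.1 TPM (*WNT16*, P9 r2) at most. *WNT8B* was found at 5.74 TPM in P3 r1, and *WNT2* at 4.35 TPM in P9 r1 alone.

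Of 7 genes of ligand processing, 1 was called at 36 h and it was higher. *WLS*, the carrier that brings WNT proteins to the cell surface, was up by 6.04 ± 0.38 (edgeR adjusted p = 2.73e-10). At P9 and P10 against P8, *NOTUM*, a secreted enzyme that inactivates WNT proteins, was up by 4.63 ± 1.05 (edgeR adjusted p = 0.00838) and *TRABD2A*, a protease that does so too, was down by 3.95 on the log2 scale (log2 fold change -3.95 ± 0.76, edgeR adjusted p = 0.00344). Of 16 receptor genes, 2 were higher at 36 h, *FZD10* by 7.13 ± 0.67 (edgeR adjusted p = 1.24e-07) and the WNT5A receptor gene *ROR2* by 3.98 ± 0.44 (edgeR adjusted p = 1.62e-06). The median of the receptors was -0.08 against 0.00 over all genes. *FZD4* was lower at P1 than at 36 h (log2 fold change -1.5 ± 0.29, edgeR adjusted p = 0.00323).

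Of 16 canonical targets and feedback genes, 11 were higher at 36 h and 5 were not called, with a median of 3.66 against 0.00 over all genes. The largest changes were those of *CDX1* with 11.31 ± 1.29, *TBXT* with 11.26 ± 1.80, *DKK1* with 9.69 ± 1.97 and *CDX2* with 9.57 ± 1.42. Later steps called few of them by edgeR. *LEF1* was up by 2.11 ± 0.43 from 36 h to P1 (edgeR adjusted p = 0.00447) and *NKD2* by 3.44 ± 0.78 from P1 to P3 (edgeR adjusted p = 0.00988), with *NOTUM* as above. At P9 and P10 against P8, 10 of the 16 were at an unadjusted p under 0.05, beside 5708 genes. DESeq2 called 4 of them there, beside 740 genes. *AXIN2*, a feedback gene of the canonical pathway, was at 11.9, 11.1 and 12.3 TPM at t0, at 61.8, 90.0 and 65.1 TPM at 36 h and at 303, 159 and 224 TPM at P5. It stayed above its t0 level in every later library, including the passages at which *WNT3A* and *WNT8A* were near 0.

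Of 11 secreted antagonists, 2 were higher at 36 h (*DKK1* and, by 9.31 ± 1.83, *DKK4*) and 1 was lower, *SFRP1*, with a log2 fold change of -4.01 ± 0.66 (edgeR adjusted p = 0.000269). *SFRP2* was lower at P9 and P10 than at P8 (-3.64 ± 0.78, edgeR adjusted p = 0.00642). Of 9 planar polarity genes, 1 was higher at 36 h, *VANGL1* by 1.15 ± 0.25 (edgeR adjusted p = 0.00297). *PRICKLE2* was higher at P1 than at 36 h by 3.08 ± 0.51 (edgeR adjusted p = 0.000891), and *CELSR1* was lower at P9 and P10 than at P8 (-2.25 ± 0.48, edgeR adjusted p = 0.00587). No gene of these lists was called by edgeR in other comparisons. DESeq2 at 36 h called 3 processing genes, 5 receptors, 12 targets, 3 antagonists and 1 polarity gene, among 881 genes. At P9 and P10 against P8 it called 2 processing genes, 2 receptors, 4 antagonists and 3 polarity genes, among 740. At an unadjusted p under 0.05 between the P5 fractions there were 8 of 16 receptors and 5 of 9 polarity genes, and DESeq2 called 1 of each. Of the others there were 2 of 7 processing genes, 5 of 16 targets and 2 of 10 antagonists, of which DESeq2 called 1, 2 and 1. Over all 18885 genes tested there were 4894.

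Likeness was measured as Pearson's r over the 16 group means of log2(TPM + 1), among 13682 genes, as a description. *WNT3A* and *WNT8A* were each among the 3 genes most like the other (r = 0.97), but not with a pseudocount of 0.1 in place of 1 (r = 0.89), and the gene most like both was *RSPO3*, which encodes a secreted enhancer of canonical signalling (r = 0.98). *MACC1-AS1* was also among the 3 for both (r = 0.97). *WNT5A* was most like *DLC1*, *RTF2* and the neural crest and dorsal neural gene *PAX3* (r = 0.98 each). *WNT5B* was most like *FBXL14*, then *SKA1* and *GTF2H3* (r = 0.94 each), and *WNT3* was most like *JAKMIP2* (r = 0.92), *ARSE* (r = 0.88) and *AGAP6* (r = 0.87). *WNT4* was most like *KDM3A* (r = 0.95), *ZNF84* (r = 0.93) and *NRP2* (r = 0.92). *WNT11* was most like *KALRN* and the collagen receptor gene *DDR2* (r = 0.97 each) and *AC089987.1* (r = 0.96), and *WNT2B* was most like *DTX4* (r = 0.91), *PRELP* and *GAS1* (r = 0.87 each). For the low genes *WNT6* (*F13A1*, *RUNX1* and *PLA2G4A*, r = 0.94 each) and *WNT1* (*FAM181B*, *RSPO1* and *CNPY2*, r from 0.81 to 0.84) the value rests on few groups.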

How the data were processed

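The authors trimmed reads with cutadapt 1.16 and quantified them with STAR 2.5.2b and RSEM 1.3.0 on GRCh38, as named in the submitters' processing notes. The annotation release is not given in the sources used here. The deposited expected counts are RSEM's estimates per gene, and 9.33% of them were not whole. RSEM scaled the deposited TPM for transcript length within each library. Symbols and positions came from GENCODE 29, which matched 57447 of 58051 genes. The WNT genes were matched by Ensembl identifier through it.

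Expected counts were rounded and tested with edgeR 4.0.16 (glmQLFit and glmQLFTest, TMM factors, filterByExpr, Benjamini-Hochberg adjustment over all genes tested) in R 4.3.3, with the replicate number as a block. The 35 whole cultures shared a fit, and so did the 12 fractions. Standard errors are the log2 fold change divided by the root of F. Normalized counts are rounded counts over TMM factors scaled to a geometric mean of 1. DESeq2 1.42.0 was the other tool, and other filters, scalings, library sets and thresholds were tried. The code was tested on simulated counts. Reads had no molecular identifiers, so the floor of 3 counts covers counting error only.

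The pairing comes from the series' design text, by which each of 3 experiments gave all time points. Deviations of same-numbered libraries from their group means correlated at 0.59 to 0.68 between the P5 fractions and 0.75 to 0.80 between the P8 fractions, but at -0.13 to 0.44 between the groups of the tested steps. Of 46 pairs of replicates none was as close as sampling noise. The ligands and lists were chosen with earlier results of these data known. Any of the 10 ligands could be named in a comparison, called or not, and those given were picked after their values were seen. Other pathway genes are named for up to 4 called members of a list with the largest change. *AXIN2*, the other WNT genes given by level, cell type markers given by level, and the overlapping or neighbouring genes were named after their values were seen.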

Additional observations from a re-analysis of the deposited data

How the results depend on the processing

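In 7 of the 9 comparisons the ligand count was 0, so an unchanged count there says little, and both other counts moved by over 1.5 times under some alternatives. For 36 h against t0, the 4 ligands called became 1 to 5 when a differentiation was left out. For P1 against 36 h, the 1 call became 0 with only the compared groups fitted and 0 to 1 with a differentiation left out. For P3 against P1, the 0 calls became 1 without the replicate block, 2 with DESeq2, 1 with all 47 libraries in the fit, 2 at an adjusted p of 0.05, 0 to 3 with a differentiation left out and 1 without P10 r1, an alternative chosen after the data were seen, as was leaving out P1 r1. For the P5 fractions, the 0 calls became 2 with DESeq2 and 2 at an adjusted p of 0.05. Dropping the block changed no other ligand call.

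Fits of single ligands were rerun for up to 40 of the ligand tests under an alternative, not for all of them. Among these the sign of 4 turned, none of them called. With a differentiation left out, *WNT3A* from 36 h to P1 ran from -4.59 to 0.22, from P3 to P5 from -5.64 to 3.76 and in the interaction from -2.90 to 0.24, and *WNT8A* from P3 to P5 from -3.39 to 0.24 (log2 fold changes). The cause was not tested.

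Counts over all genes moved more. With DESeq2 they were 574 in place of 259 for P1, 530 in place of 238 for P3, 58 in place of 3 for P5, 155 in place of 2 for P8, 740 in place of 271 for P9 and P10, and 674, 55 and 1 in place of 0 for the fractions and their interaction. Without the block they were 129 for P3, 0 for P8 and 37 for P9 and P10. With only the compared groups fitted they were 168 in place of 589 for 36 h and 0 for all later steps, and with all 47 libraries 427, 382, 508 for P1, P3 and the last step and 13 for the P5 fractions. With no count filter the P5 fractions gave 82. Leaving out r1 gave 891, 955, 820, 100 and 928 for 36 h, P1, P3, P8 and the last step, and leaving out r2 or r3 gave at most 92. Without P1 r1 the count for P1 was 809, and that for P5 was 5. Without P10 r1 the counts for P5, P8 and the last step were 6, 5 and 1007. At an adjusted p of 0.05 they were 964, 632, 530, 39 and 786 for 36 h, P1, P3, P8 and the last step and 503 for the P5 fractions. Fewer libraries or genes enter some of these fits, and causes were not tested otherwise.

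With normalized counts in place of TPM, the noncanonical share was 62.3% at 36 h and 87.1% at P1, and 8 of 10 ligands had the same highest group. Over the 10 listed ligands alone the t0 share was 80.1%. With a pseudocount of 0.1, 14 of the 30 genes most like a ligand stayed among the 3. Depth limits *WNT1*, *WNT6* and late *WNT3A*, which had few counts.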
